A study of Mus musculus with 2 samples.

Results

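The genes described here were 10 subunits of cytokine receptors whose ligands are linked to psoriasis: Il17ra, Il17rc, Il1r1, Il1rap, Tnfrsf1a, Tnfrsf1b, Il4ra, Il13ra1, Il6ra and Il10rb. They were chosen by symbol, and all 10 were found among the 19059 genes measured. Their RNA was counted in single cells of cervical dorsal root ganglia (DRG), the clusters of sensory neuron cell bodies beside the spinal cord, from levels C2 to C7 of the mouse. The KO library came from mice with the genotype Foxp3 CreER; Penk fl/fl, in which tamoxifen-activated Cre, driven from the Foxp3 gene that marks regulatory T cells, removes floxed Penk. The control library came from littermates with the genotype Foxp3 CreER; Penk fl/WT, so the controls carried the Cre and 1 floxed Penk allele as well. Both groups received tamoxifen and 3 days of imiquimod, a Toll-like receptor agonist applied to skin to produce psoriasis-like inflammation. Each genotype was 1 library (Treg_Penk_KO and Treg_Penk_ctrl in the plots) whose title calls it pooled, and how many mice it holds is not stated in the sources used here. With 1 library per genotype there is no spread between replicates and no test, so every interval given is a 95% interval that covers counting error only.

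IL-17A signals through a complex of IL-17RA and IL-17RC and, in the skin, drives keratinocytes to make chemokines and antimicrobial peptides. The receptors for IL-1 and TNF feed the same NF-kB pathway, IL-4 and IL-13 share a receptor that signals through STAT6, IL-6 uses its receptor with the signal transducer gp130, and IL-10RB is a chain shared by IL-10 and IL-22 receptors. DRG neurons send their endings into the skin, where several of these cytokines are known to act on neurons that sense pain or itch.

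RNA molecules were counted by unique molecular identifiers (UMIs), 156441497 of them over 12067 barcodes in KO and 259136217 over 15710 barcodes in control. The median was 2243 UMIs per barcode in KO and 2481 UMIs in control, and 4723 barcodes, 39.1% of those in KO and 30.1% of those in control, occurred in both libraries. Penk itself had 4 UMIs in KO cells and 582 UMIs in control cells, and where its probe lies relative to the deleted part is not known here. Of the classes that clustering gave, 20 reached 100 cells in both libraries: 11 classes of neurons, of which 10 were named as subtypes from marker genes, and 9 classes outside the neurons, of which 6 were named. The unnamed cluster led by the globin genes Hbb-bs, Hba-a2 and Hbb-bt, with 732 cells in KO and 1038 cells in control, is counted here outside the neurons, although Mrgprd and Lpar3 were among its 10 leading genes and its markers met the rule for neurons. No marker was at 0 UMIs in a class named from it, but the Peptidergic A markers summed to less in their own class, 1812 CPM in KO and 1479 CPM in control, than in the Peptidergic C-like class, 2657 CPM in KO and 2473 CPM in control. No class was named for T cells, whose 5 markers summed to 604 UMIs over all kept KO cells and 795 UMIs over all kept control cells. Neurons made up 5004 of the kept KO cells (41.5%) and 6397 of the kept control cells (40.8%), with a median of 7862 UMIs per neuron in KO and 11429 UMIs in control. Levels are given as CPM, the conventional scaling of a gene's UMIs by all UMIs of the same class and library. Because the assay reads each gene with its own probes, CPM are compared between classes and libraries but not between genes.

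All 10 receptor genes reached their highest level in a class outside the neurons, in both libraries. Among 14024 genes with at least 100 UMIs, 49.4% did so. For 9 of the 10 the highest class was the same in both libraries, against 60.3% of those genes. The exception was Il17ra, which was highest in a cluster led by Ptgds, Igfbp6 and Islr in KO and in Macrophage-like cells in control. Macrophage-like cells had the largest sum over the 10 genes, 949 CPM in KO and 1020 CPM in control, where all neurons together had 199 CPM in KO and 202 CPM in control. Neurons nevertheless held more of the UMIs than all other cells together for 8 of the genes, the exceptions being Il1rap and Il6ra, and they contributed 80.02% of all UMIs in KO and 80.03% in control. Neurons held 81.3% of Il4ra UMIs in KO and 81.1% in control, 77.9% of Il10rb UMIs in KO and 78.1% in control, 36.7% of Il1rap UMIs in KO and 44.0% in control, and 14.1% of Il6ra UMIs in KO and 18.3% in control.

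**Figure D1:**
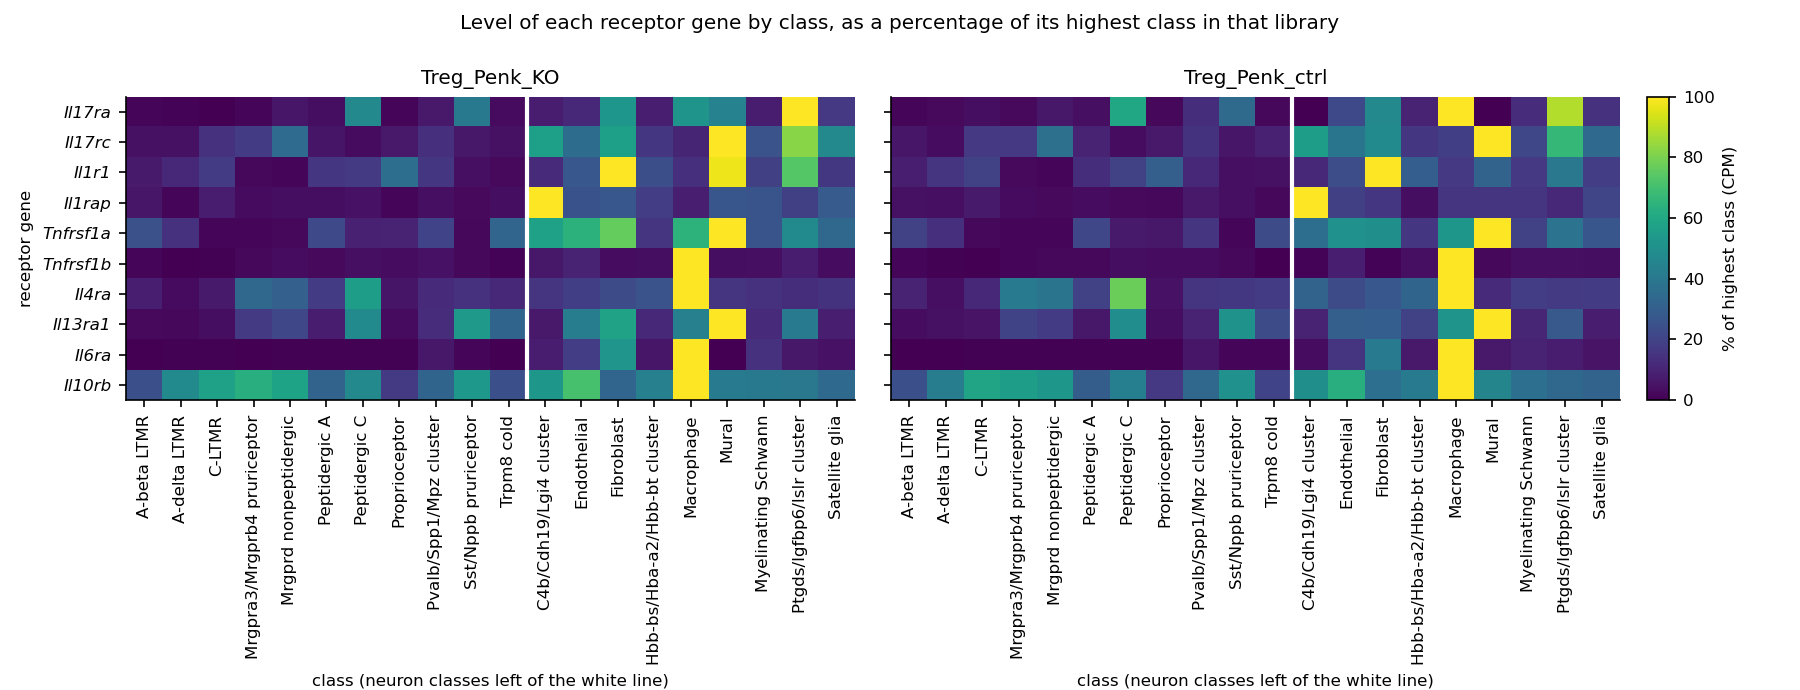
Level of each receptor gene (down) in each class (across) as a percentage of that gene's highest class in the same library, with KO on the left and control on the right. Classes of neurons stand left of the white line, and the highest class of each of the 10 genes stands right of it in both libraries.

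RNA of 1 class also appeared in others. The 8 general neuron markers stood, in classes outside the neurons, at 42.6% to 80.9% of their level in neurons, the upper end being the globin-led cluster. The reverse was smaller, since macrophage markers stood in neurons at 0.3001% of their macrophage level in KO and 0.305% in control, and fibroblast markers at 0.478% of their fibroblast level in KO and 0.618% in control. These quotients are given beside the receptor genes below, and the part of free RNA or mixed droplets in each level was not tested.

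The IL-17 receptor genes were found in different neurons. Il17ra (chr6:120440104-120464520, GRCm39), the chain that all IL-17 receptors share, had 156 UMIs in KO and 231 UMIs in control in Peptidergic C-like neurons, which carry the neuropeptide genes Tac1 and Calca. Its level there was 15.9 CPM (interval 13.5 to 18.6) in KO and 19.4 CPM (17.0 to 22.1) in control. In Sst/Nppb pruriceptor-like neurons, the itch neurons that make natriuretic peptide B and somatostatin, it was 13.6 CPM (10.6 to 17.3) in KO and 11.2 CPM (8.65 to 14.2) in control. Those intervals overlapped in KO but not in control, so the order of the pair was seen beyond counting error in 1 library. The third subtype, Mrgprd nonpeptidergic-like neurons, stood far below with 1.98 CPM in KO and 2.15 CPM in control, and each of the other 7 named subtypes had at most 1.26 CPM in KO and 1.35 CPM in control. At least 1 Il17ra UMI was found in 19.7% of Peptidergic C-like cells in KO and 21.5% in control, and in 1.19% of Mrgpra3/Mrgprb4 pruriceptor-like cells in KO and 2.52% in control, although that pruriceptor class was deeper, with medians of 15604 UMIs in KO and 16727 UMIs in control where Peptidergic C-like cells had 9137 UMIs in KO and 10631 UMIs in control. After every cell was thinned to 500 UMIs, 1.29% of Peptidergic C-like cells in KO and 1.04% in control still held one. A share under 1% is read here as no more than background. The intervals of both shares include 1%, so they cannot tell a low level from background.

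Outside the neurons Il17ra was 33.7 CPM in KO and 28.7 CPM in control in the Ptgds, Igfbp6 and Islr cluster, where 1 control cell gave 18 of the 39 UMIs. Macrophage-like cells had 17.5 CPM from 15 UMIs in KO and 32.5 CPM from 35 UMIs in control, and Fibroblast-like cells had 17.7 CPM in KO and 15.3 CPM in control. The Peptidergic C-like level of Il17ra was 90.8% of the macrophage level in KO and 59.8% in control, where the macrophage markers stood at 0.402% in KO and 0.377% in control.

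Il17rc (chr6:113448388-113460103, GRCm39), the partner chain that gives the receptor its response to IL-17A and IL-17F, was highest among neuron subtypes in Mrgprd nonpeptidergic-like neurons. It had 426 UMIs there in KO and 698 UMIs in control, or 15.6 CPM (14.2 to 17.2) in KO and 16.7 CPM (15.5 to 18.0) in control. It came next in Mrgpra3/Mrgprb4 pruriceptor-like neurons, with 7.96 CPM in KO and 7.42 CPM in control, and in C-LTMR-like neurons, the unmyelinated low-threshold touch receptors, with 6.398 CPM in KO and 7.50 CPM in control. The intervals of those 2 subtypes overlapped in both libraries. Peptidergic C-like neurons, where Il17ra was highest, had the lowest Il17rc level of all subtypes, 1.32 CPM (0.705 to 2.26) in KO and 1.51 CPM (0.896 to 2.39) in control. That was within counting error of A-delta LTMR-like neurons, another class of touch receptors, with 2.02 CPM (1.08 to 3.46) in KO and 1.54 CPM (0.878 to 2.50) in control. An Il17rc UMI was found in 26.1% of Mrgprd nonpeptidergic-like cells in KO and 32.1% in control, and in 2.10% of Peptidergic C-like cells in KO and 2.38% in control. At 500 UMIs per cell the share in Mrgprd nonpeptidergic-like cells was 0.680% in KO and 0.801% in control. Both lie under the 1% that is read here as no more than background. A gene at this CPM is expected in few cells of 500 UMIs, so the thinned share cannot tell a low level from background. Outside the neurons Il17rc was highest in Mural-like cells of vessel walls, 44.9 CPM in KO and 45.2 CPM in control, from 6 UMIs in KO and 11 UMIs in control. In the Ptgds, Igfbp6 and Islr cluster it was 36.9 CPM in KO and 30.2 CPM in control, and its intervals there overlapped those of Mural-like cells.

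**Figure D2:**
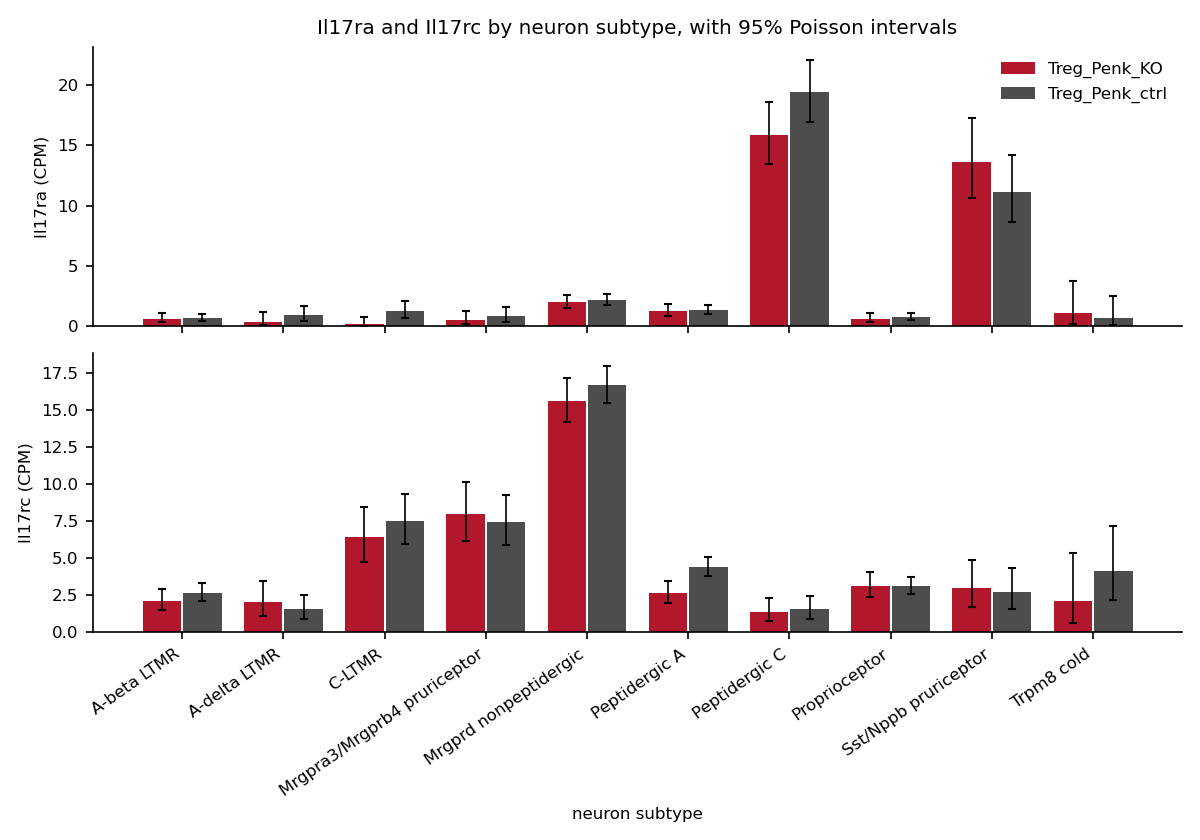
Il17ra (top) and Il17rc (bottom) in CPM for the 10 named neuron subtypes, KO bars left of control bars, with 95% Poisson intervals for counting error. Il17ra stands out in Peptidergic C and Sst/Nppb neurons, and Il17rc in Mrgprd neurons.

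A finer division of the Mrgpra3/Mrgprb4 pruriceptor-like neurons gave 2 clusters that differed in Il17rc and Il13ra1, while Il17ra had at most 5 UMIs in either cluster and library. In the cluster led by Mrgprb4, Mrgprx1 and Rgs5, Il17rc was 12.7 CPM in KO and 13.1 CPM in control. In the cluster led by Mrgprx1, Tmem45b and Crip1, it was 0 CPM in KO, from 117 cells, and 0.843 CPM in control. Il13ra1 ran the other way in the same cells, with 2.28 CPM in KO and 5.09 CPM in control in the Mrgprb4-led cluster and 30.0 CPM in KO and 32.7 CPM in control in the other. The receptor genes had been left out of the genes used for clustering. The Mrgprb4-led cluster had 136 cells in KO and 162 cells in control, at a median of 18253 UMIs in KO and 16348 UMIs in control, and the other cluster 12475 UMIs in KO and 18005 UMIs in control.

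The IL-1 receptor genes also differed in where they were found. Il1r1 (chr1:40264174-40356417, GRCm39), the chain that binds IL-1, was highest in Fibroblast-like cells, with 84.4 CPM (68.6 to 103) in KO and 89.97 CPM (75.1 to 107) in control. In KO this was within counting error of Mural-like cells, which had 82.4 CPM (41.1 to 147) from 11 UMIs in KO and 28.8 CPM (11.6 to 59.3) from 7 UMIs in control, and another class than Fibroblast-like was highest in KO in 5 of 9 alternatives. Among neuron subtypes it was highest in Proprioceptor-like neurons, which report muscle length and tension, with 563 UMIs in KO and 960 UMIs in control, or 30.6 CPM (28.2 to 33.3) in KO and 27.3 CPM (25.6 to 29.0) in control. C-LTMR-like neurons followed with 15.02 CPM in KO and 17.3 CPM in control and Peptidergic C-like neurons with 14.4 CPM in KO and 17.8 CPM in control. Those 2 subtypes were within counting error of each other in both libraries, and both lay below Proprioceptor-like neurons with intervals that did not overlap. Mrgprd nonpeptidergic-like neurons were lowest, with 1.36 CPM in KO and 1.51 CPM in control. Fibroblast markers stood in Proprioceptor-like neurons at 0.412% of their fibroblast level in KO and 0.558% in control, and Il1r1 at 36.3% in KO and 30.3% in control.

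Within Proprioceptor-like neurons Il1r1 was uneven. A pair of clusters led by Pvalb, Clec2l and Slc17a7 had 57.1 and 41.9 CPM in KO and 53.2 and 35.5 CPM in control. The cluster led by Pvalb, Spp1 and Slc17a7 had 16.01 CPM in KO and 17.1 CPM in control, and the cluster led by Tafa2, Pvalb and Asic3 had 15.7 CPM in KO and 12.2 CPM in control. Tnfrsf1a divided the same clusters differently, with 122 CPM in KO and 126 CPM in control in the Tafa2-led cluster, and 5.34 CPM in KO and 3.57 CPM in control in the cluster with the most Il1r1.

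Il1rap (chr16:26400350-26548880, GRCm39), the accessory chain that IL-1R1 needs to signal, was highest in a cluster led by C4b, Cdh19 and Lgi4, with 55.9 CPM (35.02 to 84.6) from 22 UMIs in KO and 79.8 CPM (56.5 to 110) from 38 UMIs in control. That cluster was not named, and the myelinating Schwann markers stood there at 5621 CPM in KO and 6048 CPM in control, where Myelinating Schwann-like cells had 10996 CPM in KO and 9561 CPM in control. Satellite glia-like cells, which wrap neuron cell bodies, had 15.96 CPM of Il1rap in KO and 16.7 CPM in control, and Myelinating Schwann-like cells had 14.6 CPM in KO and 11.99 CPM in control. Neurons were lower, with 4.31 CPM in KO and 5.72 CPM in control in C-LTMR-like neurons, the highest subtype, and 1.09 CPM in KO and 1.82 CPM in control in Proprioceptor-like neurons. The subtype with the most Il1r1 was thus near the low end for Il1rap in both libraries.

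The TNF receptor genes showed a broad and a narrow pattern. Tnfrsf1a (chr6:125325566-125339632, GRCm39), which encodes the death-domain receptor TNFR1 present on many cell types, was highest in Mural-like cells, with 314 CPM (227 to 425) from 42 UMIs in KO and 378 CPM (305 to 464) from 92 UMIs in control. Fibroblast-like cells had 240 CPM in KO and 188 CPM in control, Macrophage-like cells 203 CPM in KO and 200 CPM in control, and Endothelial-like cells 201 CPM in KO and 192 CPM in control. A Tnfrsf1a UMI was found in 62.8% of Endothelial-like cells in KO and 62.4% in control. Neuron subtypes spanned a wide range of Tnfrsf1a. Trpm8 cold-like neurons, which sense cooling, had 103 CPM (88.9 to 118) in KO and 88.0 CPM (77.6 to 99.5) in control. A-beta LTMR-like neurons, myelinated touch receptors, had 77.6 CPM in KO and 75.0 CPM in control, and Peptidergic A-like neurons had 69.4 CPM in KO and 80.6 CPM in control. At the other end, Mrgprd nonpeptidergic-like, Sst/Nppb pruriceptor-like, C-LTMR-like and Mrgpra3/Mrgprb4 pruriceptor-like neurons had 4.75 to 6.64 CPM in KO and 5.18 to 8.06 CPM in control.

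Tnfrsf1b (chr4:144938938-144973477, GRCm39), which encodes TNFR2, a receptor of immune and endothelial cells, was 197 CPM (168 to 229) in Macrophage-like cells in KO and 198 CPM (172 to 226) in control. Endothelial-like cells came next among the named classes, with 19.0 CPM in KO and 16.3 CPM in control. A Tnfrsf1b UMI was found in 24.8% of Macrophage-like cells in each library, at a median of 911 UMIs per cell in KO and 938 UMIs in control, and in 9.37% of the far deeper neurons in KO and 10.4% in control. At 500 UMIs per cell the shares were 11.5% of Macrophage-like cells in KO and 13.4% in control, and 0.280% of neurons in KO and 0.297% in control. The neuronal level was 2.49% of the macrophage level in KO and 2.18% in control, where the macrophage markers stood at 0.3001% in KO and 0.305% in control.

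Among neuron subtypes, the IL-4 and IL-13 receptor genes were both high in Peptidergic C-like neurons, while the itch subtypes differed between the genes. Il4ra (chr7:125151079-125182844, GRCm39), the chain that both cytokines use, was 147 CPM (122 to 175) in Macrophage-like cells in KO and 138 CPM (117 to 162) in control. Peptidergic C-like neurons followed, with 803 UMIs in KO and 1275 UMIs in control, or 81.7 CPM (76.2 to 87.6) in KO and 107 CPM (101 to 113) in control. Mrgpra3/Mrgprb4 pruriceptor-like neurons had 49.3 CPM in KO and 57.4 CPM in control, and Mrgprd nonpeptidergic-like neurons had 45.0 CPM in KO and 53.0 CPM in control, within counting error of each other in both libraries. Sst/Nppb pruriceptor-like neurons had 20.8 CPM in KO and 22.5 CPM in control. A-delta LTMR-like neurons, touch receptors of thin myelinated fibres, were lowest with 4.20 CPM in KO and 5.86 CPM in control. An Il4ra UMI was found in 51.3% of Peptidergic C-like cells in KO and 56.9% in control, and in 9.80% of A-delta LTMR-like cells in KO and 18.0% in control, which had medians of 16369 UMIs in KO and 21544 UMIs in control. At 500 UMIs the Peptidergic C-like share was 3.88% in KO and 5.81% in control.

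Il13ra1 (chrX:35375461-35435331, GRCm39), which pairs with the IL-4 receptor chain to bind IL-13, was highest in Mural-like cells, with 74.9 CPM (35.9 to 138) from 10 UMIs in KO and 86.3 CPM (53.4 to 132) from 21 UMIs in control. Among neuron subtypes Sst/Nppb pruriceptor-like neurons had 40.5 CPM (35.2 to 46.5) in KO and 44.3 CPM (39.1 to 49.97) in control, and Peptidergic C-like neurons had 35.5 CPM (31.9 to 39.5) in KO and 42.2 CPM (38.6 to 46.0) in control. The pair did not differ beyond counting error in either library. Trpm8 cold-like neurons followed with 23.98 CPM in KO and 19.9 CPM in control. Over the 10 neuron subtypes the log2(CPM + 1) levels of Il4ra and Il13ra1 had a Pearson correlation of 0.74 in KO and 0.75 in control, and those of Il17ra and Il13ra1 had 0.79 in KO and 0.76 in control. Other partner chains did not vary together in this way. Il17ra and Il17rc had -0.27 in KO and -0.31 in control, and Il1r1 and Il1rap had 0.06 in KO and 0.22 in control. Negative values were as large for some pairs, such as Tnfrsf1a and Il10rb with -0.75 in KO and -0.73 in control. These are descriptions of subtypes that share a library.

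The promoters of Il4ra and Il13ra1 are shown because the genes encode partner chains and varied together over the neuron subtypes. Each sequence runs 5′ to 3′ from 250 bases before to 50 bases after the gene start, as RefSeq gives it on GRCm38.p6, an earlier build than the GRCm39 of the gene positions above. Il4ra is at chr7:125552021-125552320 and Il13ra1 at chrX:36111858-36112157, both on the + strand. Capitals mark the GC box GGGCGG, found on either strand, whose matches may overlap.
Il4ra: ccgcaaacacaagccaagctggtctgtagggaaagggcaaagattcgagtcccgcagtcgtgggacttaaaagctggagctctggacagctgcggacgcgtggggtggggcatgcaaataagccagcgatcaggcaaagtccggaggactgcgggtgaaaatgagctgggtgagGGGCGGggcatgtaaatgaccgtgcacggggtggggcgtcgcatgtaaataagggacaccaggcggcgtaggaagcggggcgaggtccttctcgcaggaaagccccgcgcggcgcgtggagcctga
Il13ra1: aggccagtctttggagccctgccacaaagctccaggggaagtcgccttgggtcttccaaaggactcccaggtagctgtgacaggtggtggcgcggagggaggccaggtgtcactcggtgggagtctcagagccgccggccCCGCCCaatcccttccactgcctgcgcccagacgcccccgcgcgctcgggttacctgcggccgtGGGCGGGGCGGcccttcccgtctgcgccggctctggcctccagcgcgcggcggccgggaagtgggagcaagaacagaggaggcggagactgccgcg
The Il4ra promoter had 1 GC box and 25 CpG dinucleotides, and the Il13ra1 promoter had 3 GC boxes, 2 of them overlapping, and 28 CpG dinucleotides, where the median over 32851 promoters of the same length was 7 CpG. A GC box was present in 6 of the 9 promoters of the 8 receptor genes that had an entry and in 35.7% of all promoters. A STAT6 motif, TTC and GAA set 4 bases apart, was in 0 of the 9 promoters of these 8 genes and in 6.95% of all promoters. Il17ra and Il10rb had no entry.

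Il6ra stood in neurons below 1% of its level in Macrophage-like cells, while Il10rb was found in every neuron subtype. Il6ra (chr3:89771366-89820719, GRCm39), which binds IL-6 but needs gp130 to signal, was 96.7 CPM (77.1 to 120) in Macrophage-like cells in KO and 120 CPM (99.9 to 142) in control. Fibroblast-like cells had 50.6 CPM in KO and 48.8 CPM in control, and Endothelial-like cells 17.5 CPM in KO and 18.3 CPM in control. All neurons together had 0.647 CPM from 81 UMIs in KO and 0.825 CPM from 171 UMIs in control. That was 0.669% of the macrophage level in KO and 0.689% in control, the nearest of the 10 genes to the quotient of the macrophage markers. Trpm8 cold-like neurons had 0 Il6ra UMIs in KO, which allows up to 1.56 CPM, and 6 UMIs in control. By contrast Il6st, which encodes gp130, was 452 CPM in neurons in KO and 415 CPM in control and was found in 80.1% of neurons in KO and 83.4% in control.

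Il10rb (chr16:91203012-91224600, GRCm39) was 234 CPM (203 to 269) in Macrophage-like cells in KO and 252 CPM (223 to 284) in control, and 166 CPM in Endothelial-like cells in KO and 159 CPM in control. The highest neuron subtypes were Mrgpra3/Mrgprb4 pruriceptor-like neurons with 147 CPM (138 to 155) in KO and 142 CPM (135 to 149) in control, C-LTMR-like neurons with 134 CPM (126 to 143) in KO and 147 CPM (140 to 154) in control, and Mrgprd nonpeptidergic-like neurons with 136 CPM in KO and 134 CPM in control. Proprioceptor-like neurons were lowest with 39.6 CPM in KO and 42.0 CPM in control. An Il10rb UMI was found in 53.4% of neurons in KO and 59.9% in control. The other chain of the IL-10 receptor, Il10ra, was 120 CPM in Macrophage-like cells in KO and 118 CPM in control, and 2.83 CPM in neurons in KO and 3.26 CPM in control.

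**Figure D3:**
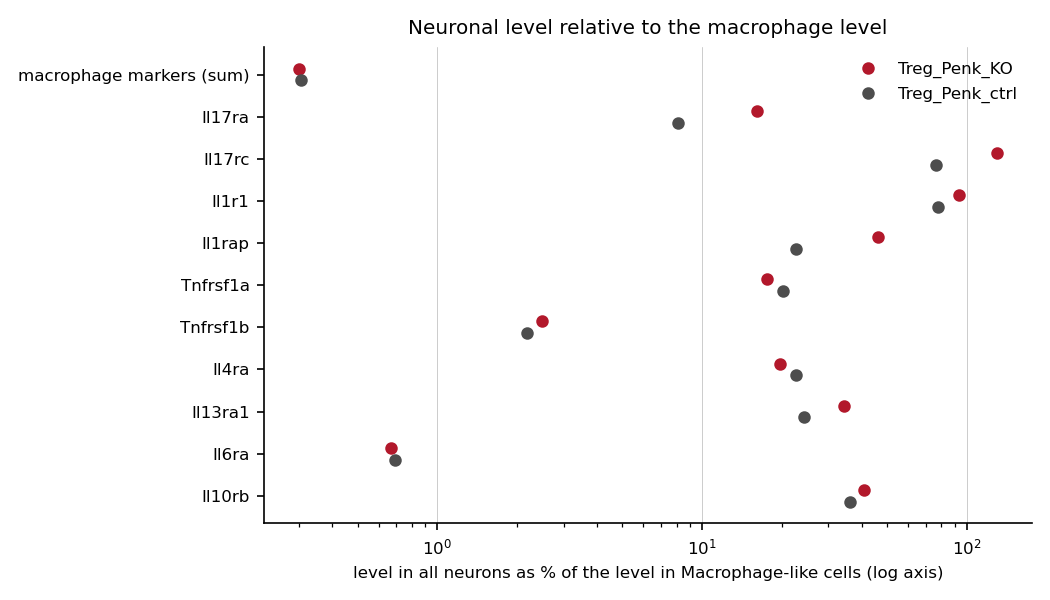
Level in all neurons as a percentage of the level in Macrophage-like cells (log axis) for each receptor gene and for the sum of the macrophage markers, with KO points above control points. Il6ra, at 0.669% in KO and 0.689% in control, lies nearest to the markers, at 0.3001% in KO and 0.305% in control, and Tnfrsf1b comes next.

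Neurons in which both chains of a receptor were counted were deep cells. Il17ra and Il17rc were both found in 45 of 5004 neurons (0.899%) in KO and 85 of 6397 neurons (1.33%) in control, where the product of the 2 single shares was 0.538% in KO and 0.827% in control. Those cells had a median of 71449 UMIs in KO and 74280 UMIs in control, and 0 neurons held both after thinning to 500 UMIs. Il1r1 and Il1rap were both found in 1.62% of neurons in KO and 2.89% in control. Il4ra and Il13ra1 were the pair counted together most often in neurons, in 525 neurons (10.5%) in KO and 894 neurons (14.0%) in control, and in 147 Peptidergic C-like cells (23.8%) in KO and 202 cells (30.1%) in control, where the product was 15.7% in KO and 20.2% in control. Tnfrsf1a and Tnfrsf1b encode separate receptors and not chains of the same one. They were both found in 50 Macrophage-like cells (8.98%) in KO and 65 cells (9.25%) in control. Since a deeper cell is more likely to show any gene, the excess over the product was not read as pairing.

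Compared over all neurons, 8 of the 10 genes lay within the limits set for a difference between the libraries. A KO over control ratio of at most 0.8 was called lower, and one of at least the inverse of 0.8 was called higher. By that rule 0 of the 10 were higher and 2 were lower, where 2.35% of 13518 genes with at least 100 UMIs in neurons were higher and 4.42% were lower. The median log2 ratio was -0.08 over the 10 genes and -0.01 over those 13518 genes. Ratios over all neurons also include the mix of subtypes, which differed between the libraries. Of 5004 KO neurons 581 were Peptidergic A-like and 618 Peptidergic C-like. Of 6397 control neurons 992 were Peptidergic A-like and 671 Peptidergic C-like. Il1rap was 2.15 CPM from 269 UMIs in KO and 2.73 CPM from 567 UMIs in control, a ratio of 0.786 (0.677 to 0.910). Il6ra had a ratio of 0.785 (0.595 to 1.03), whose interval includes 1. Both lie close to the 0.8 limit: when the deepest 1% of cells of each class were left out 0 of the 10 passed it. Over 11 alternatives the Il1rap ratio ran from 0.759 to 0.864 and was 0.801, no longer called, when the globin-led cluster was counted as neurons. The Il6ra ratio ran from 0.591 with neuron subtypes weighted equally to 1.04 with each cell counted equally. The Il1r1 ratio, 0.940, was 0.6001 when each cell was thinned to 500 UMIs, and that of Tnfrsf1b, 1.14, was 1.41 when each cell was counted equally and 0.942 when each cell was thinned.

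**Figure D4:**
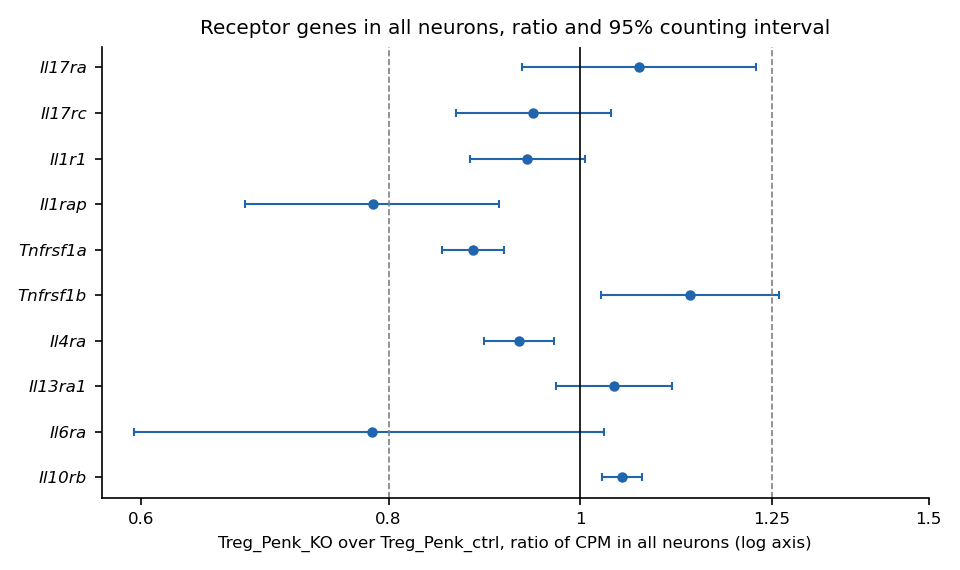
KO over control ratio of CPM in all neurons for each receptor gene (log axis), with 95% intervals for counting error, with 0.8 and its inverse dashed. Il1rap at 0.786 and Il6ra at 0.785 lie left of the lower limit, and the other 8 genes lie between the limits.

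The other 8 genes had ratios between 0.883 and 1.14 in neurons. Tnfrsf1a was 35.8 CPM in KO and 40.5 CPM in control, a ratio of 0.883 (0.851 to 0.9153), and Il4ra was 29.0 CPM in KO and 31.2 CPM in control, a ratio of 0.931 (0.894 to 0.970). Tnfrsf1b, at 4.90 CPM in KO and 4.32 CPM in control, had a ratio of 1.14 (1.02 to 1.26), and Il10rb, at 95.7 CPM in KO and 91.2 CPM in control, a ratio of 1.05 (1.03 to 1.07). The intervals of these 4 exclude 1 for counting error, which is not the spread between mice. Of the 4, only the Il4ra ratio stayed on the same side of 1 in all 11 alternatives, from 0.822 to 0.944: that of Tnfrsf1a was above 1 in 3 of them, that of Il10rb below 1 in 3 and that of Tnfrsf1b below 1 in 1. The intervals of Il17ra (1.07), Il17rc (0.947), Il1r1 (0.940) and Il13ra1 (1.04) include 1.

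Within the 10 neuron subtypes lower ratios were more common. Of 59 combinations of a receptor gene and a subtype with at least 100 UMIs, 12 (20.3%) were lower and 1 (1.69%) was higher, where 5.57% of 102192 combinations of any gene and a subtype were lower and 2.92% were higher. The background was not matched for the number of UMIs, and the intervals of 6 of the 12 lay below 1. The 1 higher value was Tnfrsf1b in Mrgprd nonpeptidergic-like neurons, 6.35 CPM in KO and 4.62 CPM in control, a ratio of 1.38 (1.11 to 1.70). The clusters of that subtype differed. A cluster led by Mrgprd, Ctxn3 and Grik1 had less in KO, 3.05 CPM against 3.85 CPM in control. Another cluster with the same leading genes had 7.19 CPM in KO and 5.28 CPM in control. Where Mrgprd, Lpar3 and Grik1 led, it was 9.32 CPM in KO and 5.71 CPM in control. Where Mrgprd, Grik1 and Tmem45b led, 13 UMIs in KO gave 7.24 CPM and 4 UMIs in control gave 1.66 CPM.

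Il4ra in Peptidergic C-like neurons rested on the most UMIs among the lower values. It was the 1 of 7 receptor genes with at least 100 UMIs there that was lower, where 5.52% of 10564 genes were lower and 1.92% were higher. The ratio of 81.7 CPM in KO to 107 CPM in control was 0.763 (0.698 to 0.834). It stayed between 0.679 and 0.762 in 7 alternatives that changed the cells or classes in this subtype. All 4 clusters that make up the subtype had less in KO: 79.1 CPM in KO and 102 CPM in control where Adcyap1, Gfra3 and Gpx3 led, 92.6 CPM in KO and 116 CPM in control where Gfra3, Adcyap1 and Gpx3 led, 82.0 CPM in KO and 113 CPM in control where Gfra3, Adcyap1 and Tac1 led, and 100 CPM in KO and 111 CPM in control where Gfra3, Atp2a3 and Gpx3 led. The intervals of the first and the third of these did not overlap between the libraries. Il4ra was also lower in C-LTMR-like neurons, 0.692 (0.525 to 0.908), and Trpm8 cold-like neurons, 0.674 (0.427 to 1.04). Its ratio was 0.849 (0.791 to 0.910) in Mrgprd nonpeptidergic-like and 0.858 (0.755 to 0.975) in Mrgpra3/Mrgprb4 pruriceptor-like neurons. Among the subtypes only Proprioceptor-like neurons were above 1, with 1.15 (0.934 to 1.42). Whether mice of 1 genotype differ among themselves by as much cannot be told from 1 library each.

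**Figure D5:**
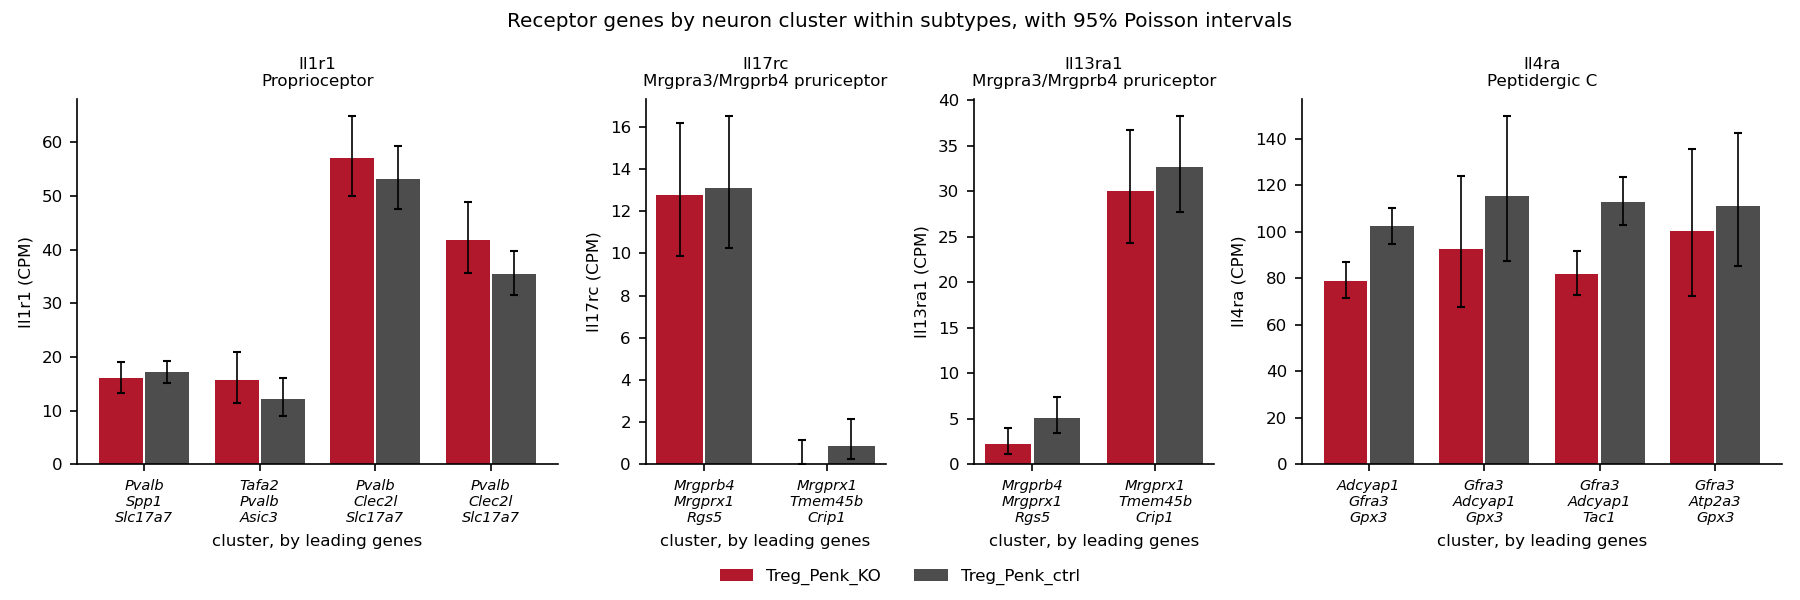
Levels in CPM of 4 receptor genes in the clusters that make up a neuron subtype, KO bars left of control bars, with 95% Poisson intervals. Il1r1 is concentrated in a pair of proprioceptor clusters, Il17rc and Il13ra1 lie in different Mrgpra3/Mrgprb4 clusters, and Il4ra is lower in KO in all 4 Peptidergic C clusters.

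Outside the neurons 44 combinations of a receptor gene and a class had at least 100 UMIs, of which 4 (9.09%) were higher and 2 (4.55%) were lower, where 6.72% of 58609 combinations of any gene and a class were higher and 6.32% were lower. The lower ones were Il17ra in Myelinating Schwann-like cells and Il6ra in Satellite glia-like cells. The Il17ra value was 2.53 CPM in KO and 4.09 CPM in control, a ratio of 0.619 (0.414 to 0.907), and the Il6ra interval includes 1. In Macrophage-like cells 0 of 5 receptor genes passed either limit, where 9.89% of 5117 genes were higher and 9.28% were lower. Tnfrsf1b had a ratio of 0.997 (0.810 to 1.23) there, Tnfrsf1a 1.01 (0.824 to 1.24), Il4ra 1.06 (0.832 to 1.36) and Il10rb 0.929 (0.770 to 1.12). Il6ra departed most from 1 among the 5, being lower in KO at the levels given above, whose intervals overlapped between the libraries. In Fibroblast-like cells Tnfrsf1a was 240 CPM in KO and 188 CPM in control, a ratio of 1.27 (1.07 to 1.51).

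Few UMIs of the ligands of these receptors were counted. Il17a and Il1a had 0 UMIs in all classes of both libraries, which allows up to 0.0192 CPM in KO and 0.0116 CPM in control over a whole library. Tnf was highest in Macrophage-like cells, with 16 UMIs (18.6 CPM) in KO and 32 UMIs (29.7 CPM) in control. Il1rn, the IL-1 receptor antagonist, had 21 UMIs (24.5 CPM) there in KO and 6 UMIs (5.57 CPM) in control, below the 100 UMIs needed for a call. Il10 had 21 UMIs there in KO and 28 UMIs in control. Of the 12 ligand genes 2 reached 100 UMIs in neurons, Il6 at 0.951 CPM in KO and 1.03 CPM in control, and Lta, which was lower with a ratio of 0.718 (0.524 to 0.974). Il6 was highest in Peptidergic C-like neurons, with 3.05 CPM in KO and 4.20 CPM in control.

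Of 26 other receptor chains 15 reached 100 UMIs in neurons, of which 3 were higher and 1 was lower, where 2.35% of all genes were higher and 4.42% were lower. The higher ones were Il31ra, the itch receptor for IL-31, with a ratio of 1.40 (1.36 to 1.44), its partner Osmr with 1.41 (1.37 to 1.45), and Il1r2, the decoy receptor for IL-1, with 1.251 (1.08 to 1.45). All 3 had their highest level in Sst/Nppb pruriceptor-like neurons. There Il1r2 was 48.0 CPM in KO and 49.1 CPM in control, Il31ra 1548 CPM in KO and 1463 CPM in control, and Osmr 1175 CPM in KO and 1080 CPM in control. These neurons held 5059792 of 125186042 neuron UMIs in KO and 6002697 of 207371127 in control. A ratio over all neurons includes this difference in mix, and its part in the 3 ratios was not tested. Il17re, the IL-17C receptor chain, was lower with a ratio of 0.771 (0.585 to 1.01). The chains with the most UMIs in neurons, a number that also depends on each gene's probes, were Lifr with 838 CPM in KO and 792 CPM in control, Il6st, and Ifngr2 with 89.9 CPM in KO and 88.2 CPM in control. Of 17 adaptors and kinases 16 reached 100 UMIs in neurons and 0 passed either limit. Those with the most UMIs were Jak1 with 373 CPM in KO and 366 CPM in control, Stat3 with 294 CPM in KO and 278 CPM in control, and Tollip with 137 CPM in each. Traf3ip2, which encodes the adaptor Act1 of the IL-17 receptor, had 25.7 CPM in KO and 21.5 CPM in control in Sst/Nppb pruriceptor-like neurons and 24.8 CPM in KO and 24.5 CPM in control in Peptidergic C-like neurons, the subtypes with the most Il17ra.

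Of 20 genes that NF-kB and STAT signals are known to induce 17 reached 100 UMIs in neurons, of which 0 were higher and 1 was lower, where 2.35% of all genes were higher and 4.42% were lower. Their median log2 ratio was -0.11, against -0.01 over all genes. The lower one was Lcn2, which encodes lipocalin 2, with 63 UMIs in KO and 196 UMIs in control and a ratio of 0.532 (0.394 to 0.711). Its neuronal level was 0.503 CPM in KO and 0.945 CPM in control, and 1 control neuron gave 22 of the 196 UMIs. Macrophage-like cells had 132 CPM of Lcn2 in KO and 134 CPM in control. The part of free RNA or mixed droplets in the neuronal level was not tested. Those with the most UMIs were Bcl3 with 44.8 CPM in KO and 40.5 CPM in control, Nfkbia with 26.2 CPM in KO and 27.3 CPM in control, and then Nfkb1 in KO, with 18.3 CPM in KO and 19.1 CPM in control, and Cebpd in control, with 17.0 CPM in KO and 19.97 CPM in control. In Macrophage-like cells 10 of the 20 reached 100 UMIs, of which 2 were higher and 1 was lower, where 9.89% of all genes were higher and 9.28% were lower. There Ccl2, a monocyte chemokine, had a ratio of 1.58 (1.14 to 2.18), Nfkb1 1.35 (0.956 to 1.91) and Birc3, an inhibitor of apoptosis, 0.757 (0.516 to 1.10).

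Other genes with similar class profiles were sought among 12670 genes by the Pearson correlation of log2(CPM + 1) over 40 points, the 20 classes in both libraries. The closest profile overall was that of the chemokine gene Ccl9 to Il6ra, with r = 0.95, followed by Cxcl16 with 0.93. Irf8 and Laptm5, genes of myeloid cells, were closest to Tnfrsf1b with 0.88 and 0.87. Entpd2 and Col27a1 were closest to Il1rap with 0.91 each, and Rell1 and Dennd1a to Tnfrsf1a with 0.91 and 0.90. Rnase4 was among the closest genes of both Il17ra and Il13ra1, with 0.82 and 0.83, beside Lsp1 with 0.82 for Il17ra and Trafd1 with 0.83 for Il13ra1. Fam117a and Cdc42ep4 were closest to Il17rc with 0.87 each, Dact1 and Tenm2 to Il1r1 with 0.86 and 0.81, Erlin1 and Mapk14 to Il4ra with 0.84 each, and Bax and Sh3glb1 to Il10rb with 0.87 and 0.83. The points share libraries and classes, so no p-value is given.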

How the data were processed

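Fixed cells of 2 DRG libraries were profiled with the 10x Genomics probe-based assay for fixed RNA, per the labels' protocols. The assay is called single-nucleus in the series text but single-cell in the labels. The authors deposited, for every gene and barcode, the raw UMI count, made on GRCm39 per the submitters' processing notes. The protocol names Cell Ranger 7.0 and the matrix header 8.0.1, and the submitters' processing notes also list Seurat without a role. No cell annotation by the authors was used here.

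Barcodes under 500 UMIs or under 300 genes were left out, 14 of 12067 in KO and 20 of 15710 in control. Counts scaled to 10000 per cell were log-transformed, and 3000 variable genes, without the 10 receptor genes and the pathway genes, gave 40 principal components, 15 neighbours and Leiden clusters at resolution 1.0, without integration (scanpy 1.11.5, Python 3.11.15). Neurons were clustered again. Clusters were named from fixed marker lists; the rule for neurons, the score limits and leaving out erythroid markers, whose globin RNA was widespread, were set after clusters had been seen, and so was placing a globin-led cluster that met the rule for neurons outside them. No doublet caller was run and no doublets were removed. The members and lists were chosen with earlier results of these data known.

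Raw counts were summed per class and library. Levels have exact Poisson, shares Clopper-Pearson and ratios exact conditional binomial 95% intervals, which cover counting error only. A count of 0 was taken to allow up to 3 counts. For shares of cells at equal depth each cell was thinned to 500 UMIs. Receptor genes are named in classes with at least 20 UMIs in both libraries together. Il17rc and Il1r1 in Mural-like cells, Il17ra in Mrgpra3/Mrgprb4 pruriceptor-like cells and Il6ra in Trpm8 cold-like neurons fell below this and were named after their values were seen. Pathway genes are named where they passed a ratio of 1.25 or 0.8 with at least 100 UMIs in neurons or in Macrophage-like cells, and for the 3 of each list with the most UMIs in neurons. Il17a, Il1a, Tnf, Il1rn, Il10, Il10ra and Traf3ip2 were named beside this rule, after their values were seen. Likeness used genes with at least 500 UMIs, naming 2 per member. The summing and ratio steps were tested on simulated data. Alternatives changed depth, weighting, scaling, the minimum of UMIs, the cells kept and the clustering. With 1 library per genotype no test between genotypes was made.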

Additional observations from a re-analysis of the deposited data

Results flagged for a closer look

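Some receptor genes had KO over control ratios past the upper limit in 1 class and under 0.8 in another, with counting intervals that excluded 1 on both sides. The difference between the classes was not tested in any of them, since each genotype is 1 library. Il17rc had a ratio of 1.37 in Satellite glia-like cells (21.2 CPM in KO and 15.5 CPM in control) and of 0.595 in Peptidergic A-like neurons (2.62 CPM in KO and 4.40 CPM in control). The Peptidergic A-like class includes the Apoe-bearing cluster, which had 94 cells in KO and 364 cells in control. Il17rc was 4.62 CPM in KO and 5.62 CPM in control in that cluster. It was 2.76 CPM in KO and 4.97 CPM in control where Htr3a, Trappc3l and Chp2 led. Where Trappc3l, Kit and S100a16 led, it was 1.19 CPM in KO and 1.55 CPM in control. The intervals of each cluster overlapped between the libraries, and the part of the mix of clusters was not tested. Il1r1 had a ratio of 1.72 in the Ptgds, Igfbp6 and Islr cluster (59 UMIs in KO and 49 UMIs in control) and of 0.714 in A-delta LTMR-like neurons (63 UMIs in KO and 143 UMIs in control). Tnfrsf1a had a ratio of 1.27 in Fibroblast-like cells (284 UMIs in KO and 270 UMIs in control) and of 0.664 in C-LTMR-like neurons (41 UMIs in KO and 86 UMIs in control). Il13ra1 had a ratio of 1.67 in Fibroblast-like cells (51 UMIs in KO and 37 UMIs in control), of 0.446 in A-delta LTMR-like neurons (11 UMIs in KO and 40 UMIs in control) and of 0.711 in Mrgpra3/Mrgprb4 pruriceptor-like neurons (107 UMIs in KO and 183 UMIs in control). The first rests on 88 UMIs and the second on 51 UMIs, under the 100 UMIs needed for a call. The third class joins clusters that differ in Il13ra1: 30.0 CPM in KO and 32.7 CPM in control where Mrgprx1 led, and 2.28 CPM in KO and 5.09 CPM in control where Mrgprb4 led.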

How the results depend on the processing

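Of the 10 receptor genes, 2 had a ratio past a limit in neurons. This count was 1 with droplets of 1 library only, 0 without the deepest cells, 0 at Leiden resolution 0.5, 0 at Leiden resolution 2.0, 1 without the Apoe-bearing Peptidergic A cluster and 1 with the globin-led cluster counted as neurons, the last 2 alternatives chosen after seeing the data. The cause was not tested. The number of genes highest outside the neurons was 10, and 6 when only cells with at least 80% of their marker UMIs from their own lists were kept, which left Endothelial-like, Mural-like, Macrophage-like and Satellite glia-like cells below 100 cells. The Il6ra ratio in neurons was 1.04 with each cell counted equally, above 1 where the reported ratio was below it. Ratios of uncalled genes also crossed 1, in 3 of 11 alternatives for each of Il17ra, Tnfrsf1a, Il13ra1 and Il10rb and in 1 for Il17rc and Tnfrsf1b. Of 110 alternative ratios in neurons, 89 lay within the counting interval of the reported ratio and 20 outside it, over a range of 0.591 to 1.41. The median log2 ratio ranged from -0.14 to -0.04, and the genes with the same highest class in both libraries from 7 to 9. The neuron subtype with the highest level was the reported one in 164 of 180 values. No paired analysis was possible because each genotype is 1 library. The depth of 712.5 to 938 UMIs per cell in Mural-like, Fibroblast-like and Macrophage-like cells limits shares there, and Mural-like levels rest on few UMIs.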
